A study of Mus musculus with 18 samples.

Results

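The Hoxb genes are 10 homeobox genes, Hoxb1 to Hoxb9 and Hoxb13, that lie in a row on mouse chromosome 11. They were chosen as a gene cluster, by symbol through the RefSeq accessions of the expression table, and the rule uses no measured value. The 10 genes, with 11 transcripts, are 10 of 23421 genes and 29851 transcripts in that table. The study concerns the Polycomb repressive complex 2 (PRC2) in mouse ES (embryonic stem) cells and in EBs (embryoid bodies, aggregates in which ES cells differentiate), and its expression data are 6 poly(A) RNA-seq libraries, 1 per group, out of 18 samples. The other 12 samples are ChIP-seq and are not analysed here.

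E36 is an ES cell line of 129/Ola background. The groups from it are EBs labelled Eed KO, EBs of the wild type, ES cells labelled Eed KO and ES cells of the wild type. The 2 ES groups grew on gelatin in 15% serum with leukemia inhibitory factor. The 2 EB groups were made from such cells by removing that factor, hanging drops for 48 hours, 0.5 µM all-trans retinoic acid from day 2 to day 5 and culture to day 9, so both EB groups saw the same retinoic acid. The allele of the Eed KO line and whether each line is a single clone are not stated by the labels. The remaining groups are E14 cells, another 129/Ola ES line, that carried a lentiviral pLKO.1 hairpin against Setd2 (shSetd2) or a scrambled hairpin (shCtrl), were selected with puromycin and were collected on day 4 after selection.

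Hox genes encode transcription factors that give cells their position along the head-to-tail axis of the embryo. Genes at the 3′ end of a cluster, such as Hoxb1, are switched on first and farthest forward, in the hindbrain, and genes at the 5′ end, such as Hoxb13, last and farthest back, in the tail. Retinoic acid opens the 3′ end through receptors that bind the DNA there. In ES cells the clusters are silent and covered by H3K27me3, the mark that PRC2 lays down. Eed is the PRC2 subunit that binds this mark and that the enzyme needs for activity, and Setd2 is the methyltransferase that lays down H3K36me3 over transcribed genes.

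Promoter sequence was at hand for 3 of the 10 genes, and it is shown because these 3 stand for the front, the middle and the back of the Hoxb1 to Hoxb9 block. Each line gives the 200 bases from position -250 to -51 before the RefSeq start on the + strand of GRCm38.p6 (RefSeq). The capitals mark TGATNNAT, a form of the joint binding site of Pbx and Hox proteins, in Hoxb1, AGGTCA, the half-site of retinoic acid receptors, in Hoxb4, and TTTAT, a core of posterior Hox and Cdx sites, in Hoxb8.
Hoxb1, chr11:96365508-96365707: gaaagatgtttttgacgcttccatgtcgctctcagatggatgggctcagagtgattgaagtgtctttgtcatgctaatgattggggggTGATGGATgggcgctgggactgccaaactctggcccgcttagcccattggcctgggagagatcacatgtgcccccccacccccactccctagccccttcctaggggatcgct
Hoxb4, chr11:96318017-96318216: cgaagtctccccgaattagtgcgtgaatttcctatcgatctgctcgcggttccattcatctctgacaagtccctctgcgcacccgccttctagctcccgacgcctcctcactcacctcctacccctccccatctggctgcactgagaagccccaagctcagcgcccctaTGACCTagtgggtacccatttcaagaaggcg
Hoxb8, chr11:96281655-96281854: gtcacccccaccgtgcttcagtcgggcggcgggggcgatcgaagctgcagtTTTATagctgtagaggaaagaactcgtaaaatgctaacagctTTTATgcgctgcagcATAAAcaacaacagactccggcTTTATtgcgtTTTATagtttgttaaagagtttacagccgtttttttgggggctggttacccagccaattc

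All 3 motifs were searched on both strands of each window, and no matches overlapped. The Hoxb1 window holds 1 TGATNNAT, at positions -162 to -155, the Hoxb4 window 1 AGGTCA, on the - strand at -81 to -76, and the Hoxb8 window 5 TTTAT, of which 1 is on the - strand and reads ATAAA. Among 32851 windows of the same length and position, 6.44% hold TGATNNAT, 11.4% AGGTCA and 31.6% TTTAT. The windows hold 5, 12 and 11 CG dinucleotides in Hoxb1, Hoxb4 and Hoxb8, against a median of 4 over all windows. These matches are letters in a window and show no binding.

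The cluster also holds 2 microRNA genes, shown because their rows lie on either side of Hoxb5 to Hoxb9. miR-196a is known to direct cleavage of Hoxb8 mRNA in the mouse, and miR-10a lies next to Hoxb4. The mature sequences are from RefSeq (GRCm38.p6, + strand), with the seed, bases 2 to 8, in capitals.
mmu-miR-196a-5p, chr11:96265187-96265208: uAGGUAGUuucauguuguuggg
mmu-miR-10a-5p, chr11:96317186-96317208: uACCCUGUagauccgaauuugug
Their seeds differ.

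All levels below are FPKM, the fragments of a transcript scaled by its length and by the mapped fragments of the library, so they can be compared between genes. A difference is that of log2(FPKM + 1), which understates the change of weak genes. With 1 library against 1 library there is no replicate check, no test and no p-value. A gene is called higher or lower where that difference is at least 1 in size and the gene is expressed, at 1 FPKM or more in either library of the comparison.

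Eed mRNA had 21.8 FPKM in EBs labelled Eed KO, against 25.04 in wild-type EBs, and 77.8 FPKM in ES cells labelled Eed KO, against 72.3 in wild-type ES cells. An mRNA level does not check this label, since a disrupted allele can still be transcribed. Setd2 had 2.59 FPKM in shSetd2 cells, against 16.8 in shCtrl cells (difference -2.31). The library labelled EB Eed KO stood apart in other ways. Of the Y-linked genes, Eif2s3y had 0.0628 FPKM there, against 25.7 in wild-type EBs and 20.4 to 36.9 in the ES libraries, and Trp53, on chromosome 11, had 4.8e-06 FPKM, against 61.7 in wild-type EBs. Its depth relative to the library of wild-type ES cells was 0.796, the lowest of 6 libraries, against 1.19 in wild-type EBs, and the highest was 1.22. Summed over 8 ES cell markers, FPKM was 25.8 in EBs labelled Eed KO and 238 in wild-type EBs, against 3121 to 4420 in the 4 ES libraries, so the EB and ES labels fit the markers.

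In EBs, the block from Hoxb1 to Hoxb9 was lower in the library labelled Eed KO and Hoxb13 alone was higher. Of 10 expressed Hoxb genes, 9 were lower, against 10.4% of 13919 expressed genes, and 1 was higher, against 8.15%. The median difference was -3.03 over the 10 genes and -0.16 over all genes. The summed level of the cluster was 50.0002 FPKM in EBs labelled Eed KO and 430.2 FPKM in wild-type EBs. In bulk RNA, fewer cells that express a gene and less of its RNA per cell cannot be told apart.

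**Figure D1:**
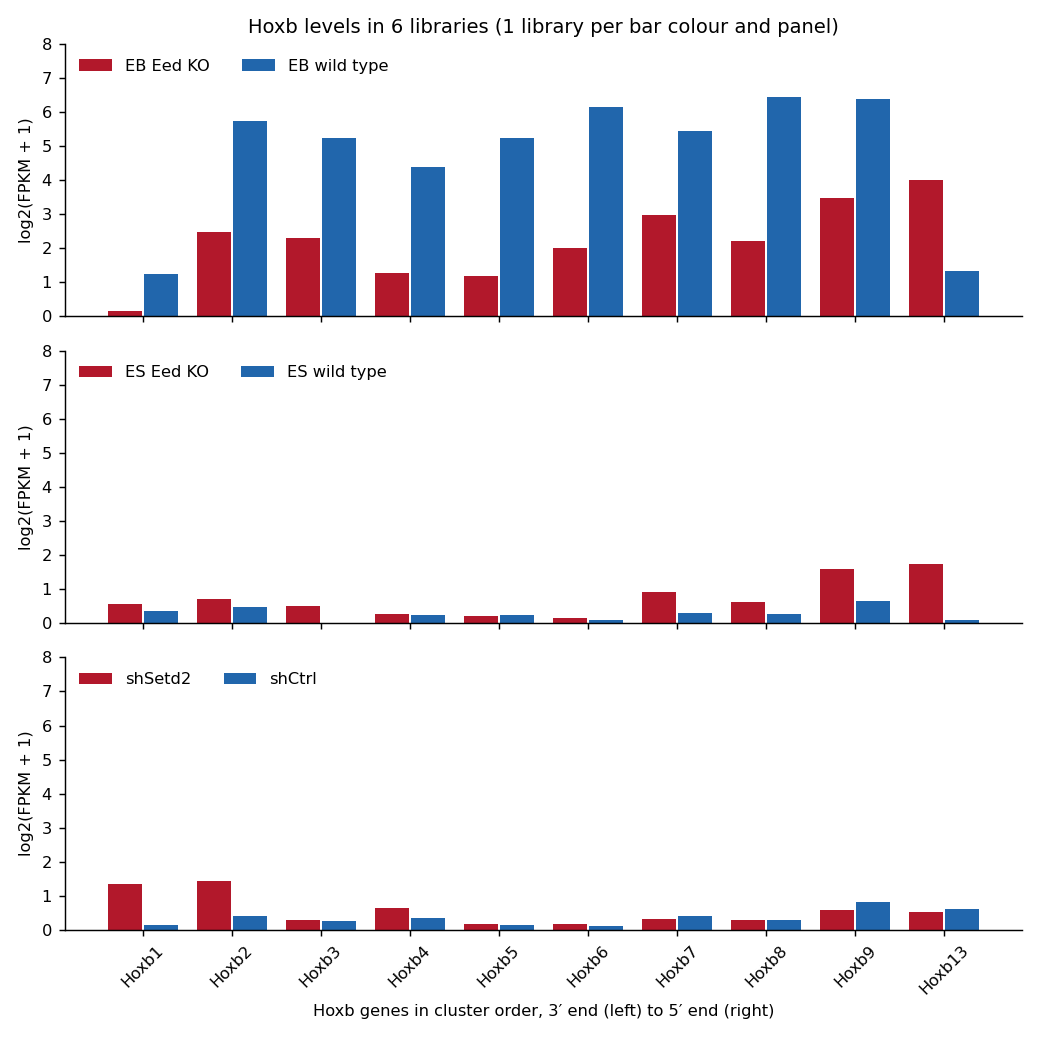
Levels of the 10 Hoxb genes as log2(FPKM + 1), in cluster order from the 3′ end to the 5′ end, 1 bar per gene and library. In EBs (top) the red Eed KO bars are under the blue wild-type bars from Hoxb1 to Hoxb9 and above at Hoxb13, and the ES libraries (middle, bottom) reach at most 2.34 FPKM.

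The front of the cluster holds the hindbrain genes. Hoxb1, which sets the identity of rhombomere 4 (NM_008266, mm9 chr11:96227072-96229567), had 0.115 FPKM in EBs labelled Eed KO, against 1.37 in wild-type EBs (difference -1.09). Hoxb2, which acts with Hoxb1 in the facial motor neurons (NM_134032, chr11:96212946-96215328), had 4.51 FPKM in EBs labelled Eed KO, against 52.6 in wild-type EBs (difference -3.28). Hoxb1 was thus weak in both EB libraries and lies just past the threshold, which it missed after centring on its chromosome's median (-0.43), whereas Hoxb2 was among the stronger genes of wild-type EBs. Hoxb3, a gene of the posterior hindbrain (NM_001079869, chr11:96184440-96209244), had 3.95 FPKM in EBs labelled Eed KO, against 36.7 in wild-type EBs (difference -2.93). Its second transcript, NM_010458, had 0.440 FPKM in EBs labelled Eed KO and 19.5 FPKM in wild-type EBs, so both transcripts of Hoxb3 were lower.

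The middle genes pattern the posterior hindbrain, neck and upper trunk. Hoxb4, also known for the expansion of blood stem cells when overexpressed (NM_010459, chr11:96179581-96182952), had 1.40 FPKM in EBs labelled Eed KO, against 20.1 in wild-type EBs (difference -3.13). Hoxb5, a gene of the neural crest that forms the gut's nerve cells (NM_008268, chr11:96164826-96167435), had 1.26 FPKM in EBs labelled Eed KO, against 36.8 in wild-type EBs (difference -4.06). Hoxb6, a marker of lateral plate mesoderm in mouse embryos (NM_008269, chr11:96160485-96162883), had 2.996 FPKM in EBs labelled Eed KO, against 70.3 in wild-type EBs (difference -4.16). These genes kept 3.42% (Hoxb5), 4.26% (Hoxb6) and 6.98% (Hoxb4) of the wild-type FPKM.

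Toward the 5′ end lie the trunk genes. Hoxb7 (NM_010460, chr11:96147960-96151477) had 6.85 FPKM in EBs labelled Eed KO, against 42.2 in wild-type EBs (difference -2.46), which left 16.2% of the wild-type level, the highest share of the 9 lower genes. Hoxb8, a trunk gene whose forced expression blocks myeloid differentiation (NM_010461, chr11:96143219-96146639), had 3.63 FPKM in EBs labelled Eed KO, against 86.5 in wild-type EBs (difference -4.24). That is the largest difference in size of the cluster, in the gene with the highest level of wild-type EBs. Hoxb9, a thoracic gene (NM_008270, chr11:96132644-96137907), had 10.2 FPKM in EBs labelled Eed KO, against 82.1 in wild-type EBs (difference -2.90). Over Hoxb2 to Hoxb9, levels ran from 1.26 to 10.2 FPKM in EBs labelled Eed KO and from 20.1 to 86.5 FPKM in wild-type EBs. Over all 10 genes they ran from 0.115 to 15.1 FPKM in EBs labelled Eed KO and from 1.37 to 86.5 FPKM in wild-type EBs. These ranges are over genes within 1 library each and give no spread between libraries.

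Hoxb13, which acts in the tail bud and later in the prostate (NM_008267, chr11:96055675-96057913), went the other way. It had 15.1 FPKM in EBs labelled Eed KO, against 1.54 in wild-type EBs, 9.84-fold higher in FPKM (difference 2.67). It was the strongest Hoxb gene of the EBs labelled Eed KO, above Hoxb9 and Hoxb7, and one of the weakest of wild-type EBs, next to Hoxb1. The order of wild-type EBs ran Hoxb8, Hoxb9, Hoxb6, Hoxb2, Hoxb7, Hoxb5, Hoxb3, Hoxb4, Hoxb13, Hoxb1. With no replicate library, the spread that would separate neighbours in either order is not known.

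The cell type markers of the 2 EB libraries also differed, and their part in the Hoxb differences was not tested. The counts below stand against 8.15% higher and 10.4% lower of all expressed genes. Of 8 neuron markers 8 were lower in EBs labelled Eed KO, with a sum of 6.71 FPKM there, against 497 FPKM in wild-type EBs, and Map2 and Elavl4 were listed at 0. Of 8 neural progenitor markers 7 were lower, with sums of 12.97 FPKM in EBs labelled Eed KO and 253 FPKM in wild-type EBs, and Fabp7 and Hes5 were listed at 0 in EBs labelled Eed KO. Of 8 cardiac and lateral mesoderm markers 7 were higher, with sums of 200.5 FPKM in EBs labelled Eed KO and 21.7 FPKM in wild-type EBs. In EBs labelled Eed KO, 5 of 8 neuron and 5 of 8 neural progenitor markers were under 1 FPKM, so these could not be called higher. In wild-type EBs 4 of 8 cardiac and lateral mesoderm markers were under 1 FPKM, so these could not be called lower. Fibroblast markers summed to 1762 FPKM in EBs labelled Eed KO and 755 FPKM in wild-type EBs, with 4 of 8 higher. In EBs labelled Eed KO, extraembryonic endoderm markers summed to 96.9 FPKM, against 49.0 in wild-type EBs, and trophoblast markers to 164.7 FPKM, against 64.0 in wild-type EBs. In each of these lists 4 of 8 genes were expressed and 2 of those were higher. Gata6 (52.6 FPKM) and Dab2 (32.4 FPKM, not called) made up most of the endoderm sum in EBs labelled Eed KO. Sox17, Sox7, Afp and Ttr were under 1 FPKM there. Krt8 (62.4 FPKM) and Krt18 (92.2 FPKM) made up most of the trophoblast sum in EBs labelled Eed KO. Cdx2, Eomes, Elf5 and Ascl2 were under 1 FPKM there.

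In ES cells the same label went with small differences, at the 5′ end. Of 10 Hoxb genes 2 were expressed, Hoxb13 and Hoxb9, since the other 8 stayed under 1 FPKM in both libraries. Hoxb13 was called higher, against 3.24% of 12862 expressed genes, and 0 were lower, against 3.46%. Both genes passed the expression limit only through the library labelled Eed KO. Hoxb13 had 2.34 FPKM in ES cells labelled Eed KO, against 0.0604 in wild-type ES cells (difference 1.66, and 0.54 with a pseudocount of 5). Hoxb9 had 2.03 FPKM in ES cells labelled Eed KO, against 0.570 in wild-type ES cells, and its difference of 0.95 lies just under the threshold. A sum of 7.73 FPKM over the cluster in ES cells labelled Eed KO stood against 2.14 FPKM in wild-type ES cells, so even the higher sum was a small part of the sums in either EB group.

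Among the genes under 1 FPKM, Hoxb4, Hoxb5 and Hoxb6 at the middle of the cluster were near no difference. Hoxb5 alone was lower under the Eed KO label (-0.02), and the others were higher, short of the threshold. Hoxb7 had 0.862 FPKM in ES cells labelled Eed KO, against 0.223 in wild-type ES cells (difference 0.61), and Hoxb8 had 0.533 FPKM in ES cells labelled Eed KO, against 0.210 in wild-type ES cells (difference 0.34). In ES cells labelled Eed KO, Hoxb6 had 0.112, Hoxb5 0.155 and Hoxb4 0.205 FPKM, and in wild-type ES cells they had 0.0711, 0.173 and 0.172 FPKM. At the front, Hoxb2 and Hoxb1 had 0.624 and 0.462 FPKM in ES cells labelled Eed KO, against 0.392 and 0.268 FPKM in wild-type ES cells. These genes were thus weak in both ES libraries, and the differences of Hoxb1, Hoxb2, Hoxb4, Hoxb5 and Hoxb6 were 0.22 or less. Hoxb3 had 0.411 FPKM in ES cells labelled Eed KO, against 2.74e-05 for the same transcript in wild-type ES cells, where its second transcript had 0.250 and the second transcript was listed at 0 in the library labelled Eed KO. The 2 transcripts of Hoxb3 have separate values in the table, and whether the near-0 value comes from how reads were assigned to them was not tested.

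**Figure D2:**
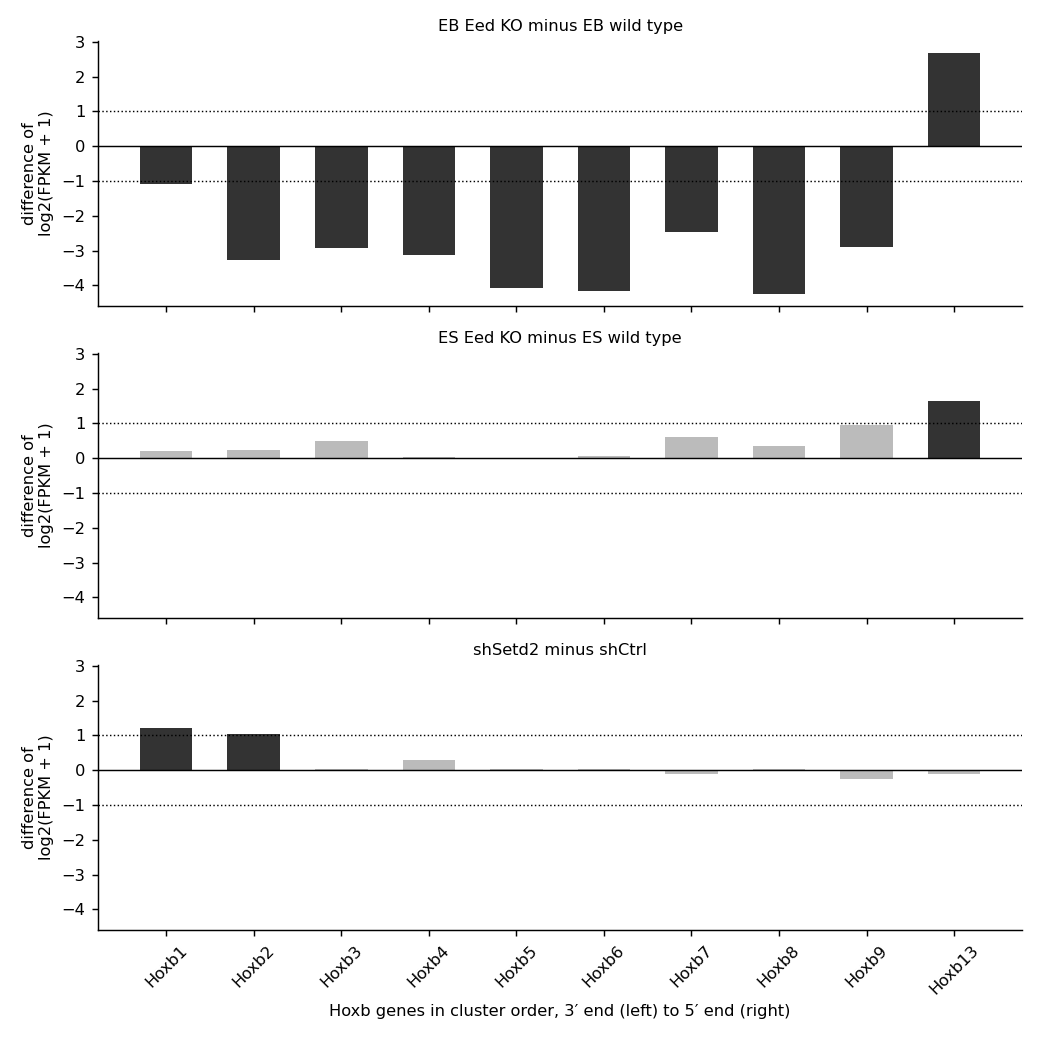
Differences of log2(FPKM + 1) for the 10 Hoxb genes in cluster order, for EB Eed KO minus EB wild type, ES Eed KO minus ES wild type and shSetd2 minus shCtrl. Dotted lines mark a difference of 1 in size, and dark bars are genes called higher or lower: Hoxb1 to Hoxb9 and Hoxb13 in EBs, Hoxb13 in ES cells, and Hoxb1 and Hoxb2 in shSetd2 cells.

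How the cluster responded to differentiation was read from EBs against ES cells within each label. These comparisons share their libraries with the ones above, so the same values appear again from another side. Of 9 expressed Hoxb genes, 7 were higher in EBs labelled Eed KO than in ES cells labelled Eed KO, against 20.8% of 13999 expressed genes, 0 were lower, against 19.6%, and the median was 1.81. In the wild type, 9 of 10 expressed Hoxb genes were higher in EBs than in ES cells, against 20.3% of 14047 expressed genes, 0 were lower, against 14.9%, and the median was 5.19. The medians over all genes were -0.05 in the Eed KO pair and 0.03 in the wild-type pair. In wild-type ES cells 0 of 10 Hoxb genes reached 1 FPKM (highest 0.570). All 10 thus counted as expressed only through the EB library, and none could be called lower. In ES cells labelled Eed KO 2 of 10 reached it, Hoxb13 and Hoxb9, so the other expressed genes of that pair also passed only through EBs.

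Within the Eed KO pair, Hoxb13 differed most (2.27), followed by Hoxb7 (2.08), Hoxb9 (1.88) and Hoxb6 (1.85), while Hoxb4 (0.99) and Hoxb5 (0.97) lie just under the threshold and Hoxb1, at 0.115 FPKM in EBs and 0.462 FPKM in ES cells, was not expressed. Within the wild-type pair, Hoxb8 (6.18) and Hoxb6 (6.06) differed most, Hoxb4 (4.17) least among Hoxb2 to Hoxb9, and Hoxb13 reached 1.26. Hoxb1 missed the threshold in the wild type (0.91), at 1.37 FPKM in EBs and 0.268 FPKM in ES cells. Hoxb13 was the single Hoxb gene with the larger difference in the Eed KO pair.

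**Figure D3:**
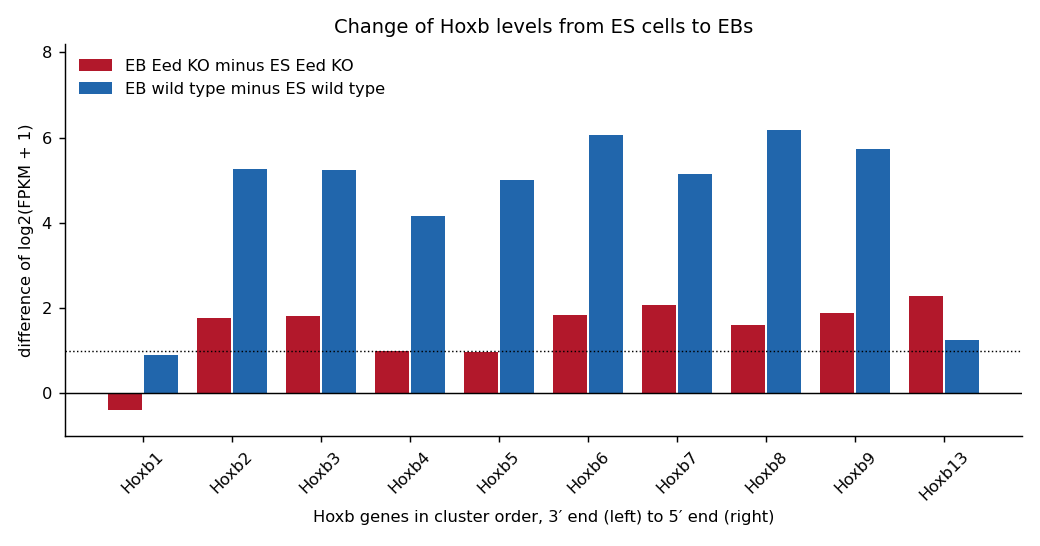
Difference of log2(FPKM + 1) between EBs and ES cells for each Hoxb gene, in cluster order, within the Eed KO label (red) and the wild type (blue); the dotted line marks 1. The blue bars of Hoxb2 to Hoxb9 lie between 4.17 and 6.18 and the red bars of the same genes between 0.97 and 2.08, and Hoxb13 alone has the higher red bar.

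In E14 cells the Setd2 hairpin went with higher levels of Hoxb1 and Hoxb2, both weak. Of 10 Hoxb genes 2 were expressed, and both were higher in shSetd2 cells, against 0.706% of 12317 expressed genes, while 0 were lower, against 1.7%. Hoxb1 had 1.55 FPKM in shSetd2 cells, against 0.105 in shCtrl cells (difference 1.21), and Hoxb2 had 1.71 FPKM in shSetd2 cells, against 0.311 in shCtrl cells (difference 1.05). Both passed the expression limit only through the shSetd2 library and lie near it, and neither was called with a pseudocount of 5. Hoxb4 had 0.563 FPKM in shSetd2 cells, against 0.274 in shCtrl cells. The other 7 genes had 0.115 to 0.482 FPKM in shSetd2 cells and 0.0802 to 0.747 FPKM in shCtrl cells, with differences between -0.24 and 0.05. Among them was Hoxb3, next to Hoxb2, at 0.03. In shCtrl cells 0 of 10 Hoxb genes reached 1 FPKM, so none could be called lower.

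Control ES cells of the 2 lines were also compared. Between shCtrl E14 cells and wild-type E36 ES cells, 0 Hoxb genes were expressed, against 3.14% higher and 5.65% lower of 12747 expressed genes. The Hoxb differences ran from -0.20 for Hoxb1 to 0.53 for Hoxb13, which had 0.530 FPKM in shCtrl cells and 0.0604 in wild-type ES cells.

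Order along the cluster was described by Spearman's rho over the 10 genes from 3′ to 5′, which all share the same libraries. The level had a rho of 0.65 in EBs labelled Eed KO and 0.39 in wild-type EBs. For the Eed KO minus wild-type difference in EBs rho was 0.08, with Hoxb13 included. Hoxb5, Hoxb6 and Hoxb8 had the largest differences there. In the ES libraries most of the genes were under 1 FPKM, so no order is read from them.

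On mm9 the 10 genes span 173.9 kb, of which a gap of 74.7 kb parts Hoxb13 from Hoxb9 and 96.9 kb holds Hoxb9 to Hoxb1. In the gap lies the non-coding gene Gm53 (NR_037977), with 9.21 FPKM in EBs labelled Eed KO, against 3.58 in wild-type EBs, and 7.73 FPKM in ES cells labelled Eed KO, against 1.53 in wild-type ES cells. Gm53 was thus higher under the Eed KO label in both stages (1.16 and 1.78). Mir196a-1, which holds the miR-196a sequence above and lies between Gm53 and Hoxb9, had 176 FPKM in EBs labelled Eed KO, against 41.9 in wild-type EBs (difference 2.05). In ES cells it had 106 FPKM under the Eed KO label, against 82.9 in the wild type, and it was listed at 0 in shSetd2 cells, against 43.1 FPKM in shCtrl cells. Mir10a, between Hoxb5 and Hoxb4, had 22.1 FPKM in wild-type EBs and was listed at 0 in the other 5 libraries. The hairpins are 102 and 110 bases long in RefSeq, shorter than what a poly(A) kit is made for, so these rows are not levels of the mature microRNAs. Opposite-strand RNAs overlap Hoxb5 and Hoxb6 and also Hoxb2 and Hoxb3 in the RefSeq table, and the kit does not mark strand, so their reads cannot be told apart.

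Beyond Hoxb13, within 300 kb, the table holds 9 genes, of which 6 were expressed in EBs. Of these 0 were higher and 4 lower in EBs labelled Eed KO, with a median of -1.08 and a range of -1.66 to 0.25, against 26.5% lower on chromosome 11 and 10.4% lower of all expressed genes. Chromosome 11 as a whole was shifted in the same direction: its median was -0.66 in EBs, against -0.16 for all genes, and -0.51 in ES cells, against -0.05. The shCtrl cells also had a chromosome 11 median of -0.49 against wild-type ES cells. Every Hoxb2 to Hoxb9 difference in EBs was larger in size than the chromosome's median and than that of each neighbour, and Hoxb13 lies on the other side of 0. Among these neighbours, Calcoco2 had 1.11 FPKM in EBs labelled Eed KO, against 5.69 in wild-type EBs, and 64.7 FPKM in ES cells labelled Eed KO, against 24.2 in wild-type ES cells. Beyond Hoxb1 both genes of the table were under the expression limit.

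**Figure D4:**
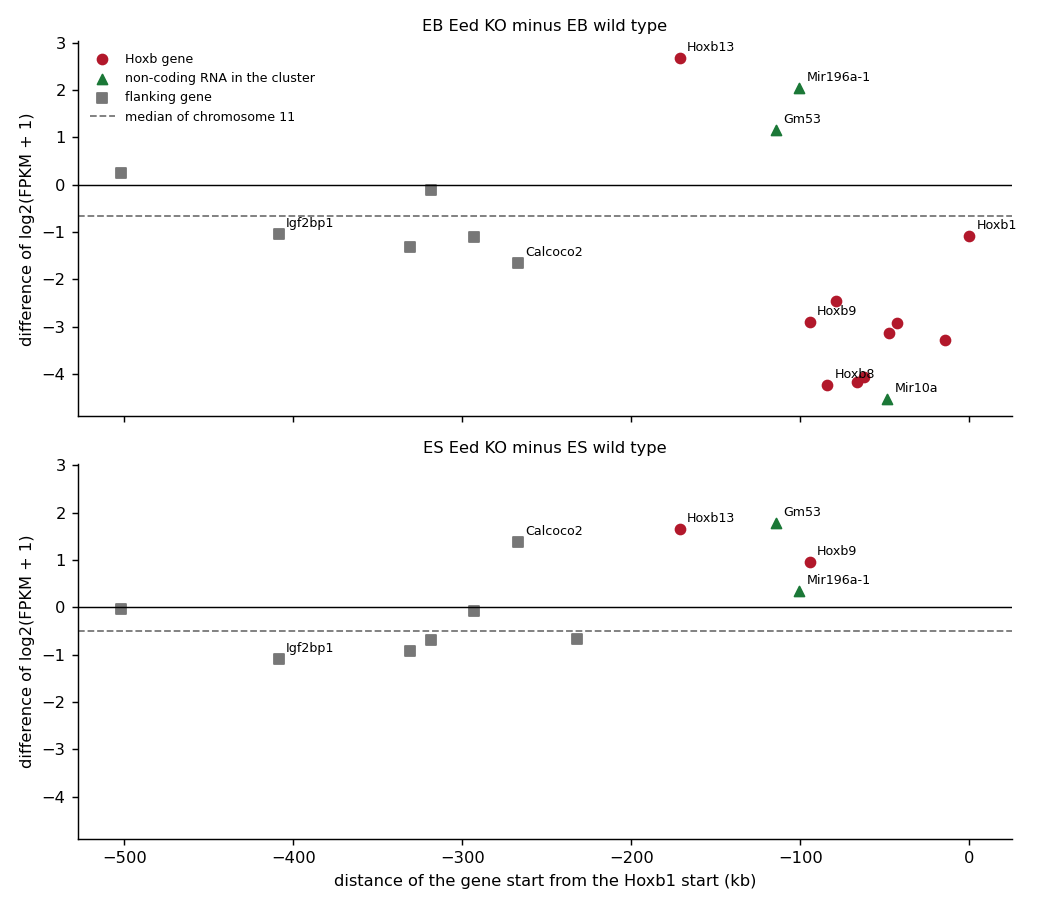
Difference of log2(FPKM + 1) against the distance of each gene start from the Hoxb1 start in kb, for EBs (top) and ES cells (bottom), showing expressed genes within 300 kb of the cluster. In EBs, Hoxb1 to Hoxb9 and Mir10a lie below the dashed chromosome 11 median (-0.66) and Hoxb13, Gm53 and Mir196a-1 above 0.

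The other HOX clusters, on other chromosomes, carry the same paralogue groups. In EBs labelled Eed KO, 8.15% of all expressed genes were higher and 10.4% lower. In groups 1 to 8, 8 of 8 Hoxb genes were lower in EBs labelled Eed KO (median -3.21), as were 5 of 6 Hoxa genes analysed here (-2.05), 4 of 4 Hoxc genes (-3.43) and 2 of 4 Hoxd genes (-1.64). Group 9 differed between clusters: Hoxb9 was lower (-2.90), Hoxc9 was at 0.01, and Hoxa9 (1.98) and Hoxd9 (1.51) were higher. In group 13, Hoxb13 was higher together with Hoxa13 (4.17), Hoxc13 (2.86) and Hoxd13 (5.34). The group 13 levels in EBs labelled Eed KO were 15.1 FPKM for Hoxb13, 21.7 for Hoxa13, 7.37 for Hoxc13 and 57.3 for Hoxd13, against 1.54, 0.263, 0.156 and 0.435 FPKM in wild-type EBs. Hoxa13, Hoxc13 and Hoxd13 thus counted as expressed in EBs only through the library labelled Eed KO and could not be called lower. In ES cells the 4 genes of group 13 were higher under the Eed KO label, against 3.24% of all expressed genes. The differences were 1.66 for Hoxb13, 1.26 for Hoxa13, 1.40 for Hoxc13 and 2.45 for Hoxd13. Their levels in ES cells labelled Eed KO were 2.34, 1.53, 2.53 and 8.80 FPKM. In wild-type ES cells they were 0.0604, 0.0539, 0.344 and 0.790 FPKM. All 4 thus counted as expressed only through the library labelled Eed KO.

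The Hoxb cluster made up 16.8% of the 297.2 FPKM of the 38 HOX genes analysed here in EBs labelled Eed KO and 59.3% of the 725.9 FPKM in wild-type EBs. The Hoxd cluster made up 33.8% in EBs labelled Eed KO and 6.73% in wild-type EBs, and the Hoxa genes analysed 34.6% in EBs labelled Eed KO and 16.6% in wild-type EBs. In shSetd2 cells the Hoxb share was 44.9% of 12.6 FPKM, against 31.8% of 9.10 FPKM in shCtrl cells. In wild-type ES cells, also a control, it was 38.6% of 5.54 FPKM. Most HOX genes were under 1 FPKM in these 3 libraries, so their shares rest on weak values.

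**Figure D5:**
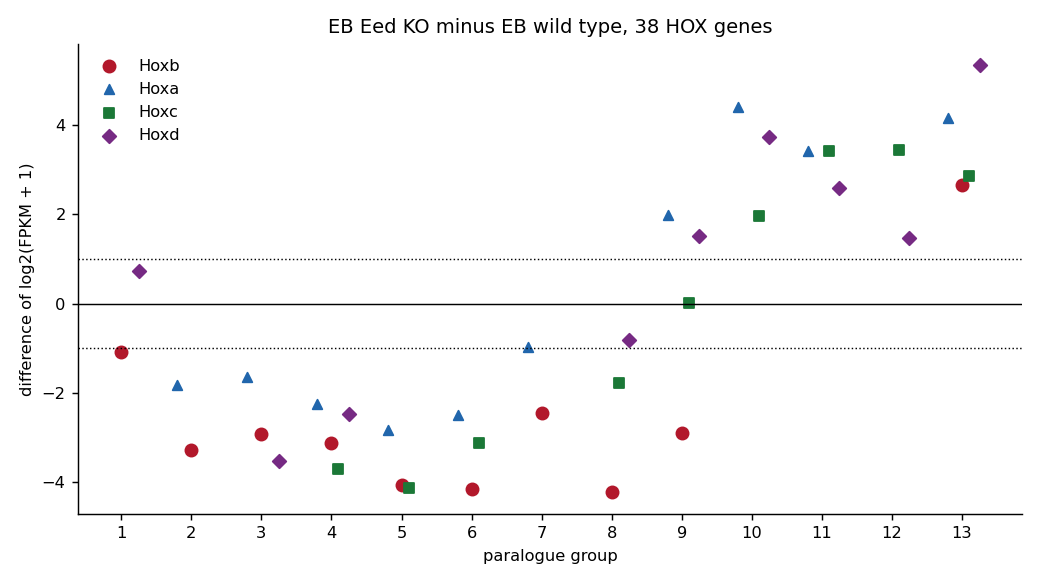
Difference of log2(FPKM + 1), EB Eed KO minus EB wild type, for 38 HOX genes by paralogue group, with Hoxb in red circles and dotted lines at a difference of 1 in size. Hoxb1 to Hoxb9 lie between -4.24 and -1.09, Hoxb9 below the other 3 genes of its group, and Hoxb13 at 2.67 among the higher genes of groups 10 to 13.

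Lists of genes that act with or upstream of Hoxb genes had medians nearer to 0 than the Hoxb genes had. Of 9 Hox cofactors (Pbx, Meis and Pknox proteins, which bind DNA with Hox proteins), 0 were higher and 2 lower in EBs labelled Eed KO, against 8.15% and 10.4% of all expressed genes, with a median of -0.64. Pbx3 had 19.3 FPKM in EBs labelled Eed KO, against 41.4 in wild-type EBs, and Pbx4 had 1.39 FPKM in EBs labelled Eed KO, against 4.28 in wild-type EBs. Meis1 had 26.1 FPKM in EBs labelled Eed KO, against 51.7 in wild-type EBs, and at -0.96 was not called. In ES cells 0 of 7 expressed cofactors were called, against 3.24% higher and 3.46% lower of all expressed genes. In shSetd2 cells 0 of 7 were called, against 0.706% and 1.7%. Of 7 expressed upstream regulators of Hox genes, 1 was higher and 1 lower in EBs labelled Eed KO, against the same 8.15% and 10.4%. Egr2 (Krox20), the hindbrain factor that activates Hoxb2, had 2.23 FPKM in EBs labelled Eed KO, against 0.51 in wild-type EBs (difference 1.10). Wnt3a, a signal of the posterior growth zone, was the lower one (difference -1.91). Any link between the Egr2 and Hoxb2 differences was not tested.

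Of 23 expressed genes of retinoic acid signalling, 4 were higher and 5 lower in EBs labelled Eed KO (median -0.26), against 8.15% higher and 10.4% lower of all expressed genes. Rara, the receptor gene on chromosome 11, had 3.31 FPKM in EBs labelled Eed KO, against 19.6 in wild-type EBs (difference -2.26). Crabp1, which binds retinoic acid in the cytoplasm, had 108 FPKM in EBs labelled Eed KO, against 382 in wild-type EBs, and Tgm2, an induced transglutaminase, had 36.1 FPKM in EBs labelled Eed KO, against 4.74 in wild-type EBs. Rarb, a direct target of the receptors, had 27.3 FPKM in EBs labelled Eed KO, against 18.1 in wild-type EBs, and was not called. In ES cells 2 of 16 were higher and 1 lower, against 3.24% and 3.46% of all expressed genes, with Rara at 3.46 FPKM under the Eed KO label and 14.5 FPKM in the wild type. In shSetd2 cells 1 of 14 was higher, against 0.706% of all expressed genes: Crabp2, at 12.3 FPKM, against 4.93 in shCtrl cells.

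Of 12 expressed genes listed for hindbrain and spinal cord identity, 5 were higher and 2 lower in EBs labelled Eed KO (median 0.67), against 8.15% and 10.4% of all expressed genes. The 5 higher were Nkx6-1, Isl1 (1.73), En2 (1.41), Otx2 (1.38) and Phox2a (1.29), and the lower were Lhx1 and Gbx2 (-1.30). Otx2 belongs to regions in front of the hindbrain, and Isl1 is also among the cardiac markers above. The count therefore gives no direction for hindbrain identity. Lhx1, a factor of motor neurons and interneurons, had 1.40 FPKM in EBs labelled Eed KO, against 9.02 in wild-type EBs, whereas Nkx6-1, a ventral spinal cord factor, had 3.04 FPKM in EBs labelled Eed KO, against 0.14 in wild-type EBs. Of 12 PRC2 genes 0 were called in EBs, against 8.15% higher and 10.4% lower of all expressed genes. In ES cells 0 of 12 were called, against 3.24% and 3.46%, shares at which few calls among 12 genes would arise. Of 12 genes of canonical PRC1, the complex that binds the mark, 2 were higher in each stage, against 8.15% of all expressed genes in EBs and 3.24% in ES cells, and 0 were lower. They were Bmi1 (1.35 in EBs, 1.71 in ES cells) and Cbx8 (1.07 in EBs, 1.13 in ES cells). Both H3K27 demethylases of the list were within the threshold.

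Likeness to the Hoxb pattern was measured by Pearson's r of log2(FPKM + 1) over the 6 libraries, among 11178 genes at 5 FPKM or more in at least 1 library. The mean profile of the 10 Hoxb genes was most like those of Ebf2 (0.999), Nxph4 (0.998), Lhx1 (0.997), Pax3 (0.997) and Cdh6 (0.996). Ebf2 had 1.49 FPKM in EBs labelled Eed KO and 8.89 FPKM in wild-type EBs. The Hoxb13 profile was most like those of Cog6 (0.993), Stard5 (0.990), the transcript NM_146065 (0.989), Tspan9 (0.989) and Tinagl1 (0.988). Tinagl1 had 40.2 FPKM in EBs labelled Eed KO and 5.33 FPKM in wild-type EBs. With 6 libraries these values are a description.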

How the data were processed

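The deposited values are FPKM on mm9, made by the authors with TopHat and Cuffdiff, per the submitters' processing notes; their versions, options, annotation and scaling are unknown here. Of 29851 transcripts, 29300 matched a symbol in RefSeq's GRCm38.p6 table, used for names, and 551 kept their accession. Where a gene has several transcripts, the one with the highest mean level stands for it; 3939 of 23421 genes have several transcripts, Hoxb3 among the Hoxb genes. The deposited starts count from 0 and are printed from 1. Total reads are not in the table, so no counting interval is given. The relative depth is the most common ratio of low FPKM in wild-type ES cells, the reference, to that in each library. It uses values below 0.1, spans of 2000 bases or more and at least 918 transcripts per library.

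Differences of log2(FPKM + 1) were computed with Python 3.11.15, numpy 2.4.6, pandas 2.3.3 and scipy 1.17.1 and drawn with matplotlib 3.10.9. The Hoxb rule uses no measured value, but the cluster, the other lists and the settings were chosen with earlier results of these data known. Named are all Hoxb genes, non-coding and neighbouring genes of the cluster, up to 4 genes per list with the largest difference, targeted genes, and the 5 genes most like each profile; Trp53, Y-linked genes and further list members such as Meis1, Rarb and Egr2 were chosen after their values were seen. There were 6 comparisons and 10 alternative settings. 1 gene of another HOX cluster is left out and not reported here.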

Additional observations from a re-analysis of the deposited data

Results flagged for a closer look

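For 8 Hoxb genes the single Eed KO library lay below the wild type in EBs and above it in ES cells. The EB difference minus the ES difference on the log2(FPKM + 1) scale was -1.30 for Hoxb1, -3.50 for Hoxb2, -3.43 for Hoxb3 and -3.17 for Hoxb4. It was -4.21 for Hoxb6, -3.07 for Hoxb7, -4.58 for Hoxb8 and -3.85 for Hoxb9. With 1 library per group this difference between stages was not tested, and most of these genes were under 1 FPKM in both ES libraries.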

How the results depend on the processing

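No library could be left out, with 1 per group. No paired analysis was possible because each group has 1 library and no result comes from a test. No difference changed direction past the threshold under any setting. Of the counts of genes called, those of EBs labelled Eed KO against wild-type EBs and of wild-type EBs against wild-type ES cells stayed within 1.5 times. The count higher in ES cells labelled Eed KO, 1, was 2 with a pseudocount of 0.1 or with centring on the chromosome median, Hoxb9 then passing at 1.67 and 1.45. It was 0 with a pseudocount of 5. The shares of all expressed genes higher were 5.76% with a pseudocount of 0.1, 3.30% with centring and 1.00% with a pseudocount of 5. With a filter at 5 FPKM the count was also 0, since no Hoxb gene reached 5 FPKM in either library. The count of 7 higher in EBs than in ES cells labelled Eed KO was 3 with a pseudocount of 5, against 9.25% of all expressed genes. With a filter at 5 FPKM only Hoxb7, Hoxb9 and Hoxb13 were expressed in that pair, and all 3 were called higher, against 20.4%. The count of 2 higher in shSetd2 cells was 0 with a pseudocount of 5, against 0.382% of all expressed genes. With a filter at 5 FPKM it was also 0, since no Hoxb gene reached 5 FPKM in shSetd2 or shCtrl cells. Hoxb1 in EBs was at -0.32 with a pseudocount of 5 and at -0.43 with centring, under the threshold. The cause was not tested. Summing the transcripts of a gene changed no call. Over all genes, equal totals moved the share higher and lower to 3.97% and 2.55% in ES cells labelled Eed KO, to 25.6% and 10.2% in wild-type EBs against ES cells and to 25.7% and 14.5% in the Eed KO pair, with medians of 0.07, 0.29 and 0.21. Chromosome centring gave 9.79% and 7.29% in EBs labelled Eed KO, and upper-quartile rescaling 1.11% and 1.26% in shSetd2 cells. The depth of the table limits genes under 1 FPKM, which most Hoxb genes are in ES cells.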
